A study of Sus scrofa with 8 samples.

Results

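Of the transcription factors that record where on the body a cell lies, 9 outside the HOX clusters were examined in pig skin: the T-box genes TBX3, TBX5, TBX15 and TBX18, and the homeobox genes PITX1, EN1, EMX2, MEIS1 and MEIS2. They were found by gene symbol in the deposited series table, which gave 8 of the 9, each on 1 row, among 31907 genes. No row carried the symbol TBX15. The 8 biopsies came from the skin of 2 wild-type Yorkshire swine, pig 13 and pig 14, for which the labels give neither age nor sex. At 2 sites of each animal 200 ng of the cytokine IL-15 in 100 µl of saline was injected into the dermis 3 h before biopsy, and 2 other sites were biopsied without injection, so that 4 injected and 4 control biopsies were sequenced as ribosome-depleted total RNA. All injected sites carry the number 12 in the labels (12c and 12d in pig 14, 12c and 12e in pig 13) and all control sites the numbers 6 or 7 (6b and 7e in pig 14, 6b and 7b in pig 13). Injection and site number therefore cannot be told apart, no site received saline alone, and the labels do not say where on the animal a number lies. The members serve here as a reading of body position at these sites.

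T-box and homeobox factors of this kind are switched on in the embryo by position along the trunk and limbs, and dermal fibroblasts of adult skin keep much of the pattern. TBX5 is the factor of the forelimb and anterior trunk, and PITX1 that of the hindlimb, where it acts upstream of TBX4. EMX2 patterns the shoulder girdle, the urogenital tract and the forebrain. EN1 marks ventral limb ectoderm and a fibroblast lineage of the dorsal dermis. TBX15 and TBX18 act in dermal mesenchyme, TBX15 in setting the boundary between back and belly skin and TBX18 in dermal papilla precursors and vessel wall cells. TBX3 acts in limb, mammary and hair development, and MEIS1 and MEIS2 are partners of HOX proteins that mark the proximal limb.

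In Sscrofa11.1 the 8 genes lie on 5 chromosomes. TBX3 (ENSSSCG00000009865, chromosome 14, 37582822 to 37596767) and TBX5 (ENSSSCG00000009867, chromosome 14, 37773605 to 37824400) are close neighbours. EMX2 (ENSSSCG00000032558) is on the same chromosome at 127650688 to 127655706. TBX18 (ENSSSCG00000004290) is on chromosome 1 at 53837454 to 53867475 and MEIS2 (ENSSSCG00000004795) on chromosome 1 at 134013820 to 134223012. PITX1 (ENSSSCG00000036741) is on chromosome 2 at 137198870 to 137206979, MEIS1 (ENSSSCG00000039161) on chromosome 3 at 75485022 to 75625040, and EN1 (ENSSSCG00000015715) on chromosome 15 at 24402605 to 24407798. All are annotated as protein-coding, and reads were counted per gene. At the place where RefSeq puts TBX15 in the same build, the table holds the unnamed protein-coding gene ENSSSCG00000006725 (chromosome 4, 101922251 to 102032277), which covers 97.0% of the RefSeq span. It is described as the unnamed gene at TBX15 and is not counted among the 8 members.

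Total counts ran from 28471089 to 36070107 per biopsy. Every biopsy expressed the keratinocyte and fibroblast markers that define skin. The pig 13 control from site 7b stood apart. Its summed level of 7 fibroblast markers, most of it from 3 collagen genes, was 19277 CPM (TMM-scaled read counts relative to library size), against 77042 to 192677 CPM in the other 7 biopsies, while its level of the fibroblast receptor PDGFRA, 124 CPM, was the highest of the 8. In these bulk samples fewer cells of a type and less RNA per cell cannot be told apart. Biopsies of a pig are not separate animals, so every p-value below weighs a difference against variation from site to site in 2 animals.

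All 8 members were expressed in every biopsy and passed the filter on low counts. In RPKM, which is CPM per kilobase of gene model and allows levels of different genes to be compared, EMX2 had the highest mean level, 8.11 ± 2.61 (SD, n = 8), followed by EN1 at 3.69 ± 0.98 and MEIS2 at 3.12 ± 0.49. TBX18 followed at 2.56 ± 0.70 and MEIS1 at 2.35 ± 0.27, and the lowest were TBX3 at 1.56 ± 0.32, PITX1 at 1.32 ± 1.09 and TBX5 at 1.22 ± 0.81. The ranges of each pair of neighbours in this order overlapped. The gene model of EMX2 is only 924 nt long and covers 68.8% of the RefSeq span, and that of PITX1 covers 54.3%, so their levels per length depend on the annotation. The unnamed gene at TBX15 was far higher, at 22.3 ± 3.9 RPKM, and its range of 15.4 to 28.6 did not meet that of EMX2, 4.49 to 11.2. It was above 91.4% of all tested genes by RPKM, where the 8 members ranked between 34.0% (TBX5) and 73.2% (EMX2).

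The spread over the 8 biopsies differed between members. In TMM-scaled CPM the coefficient of variation was 11.5% for MEIS1, 15.8% for MEIS2 and 20.7% for TBX3, but 66.3% for TBX5 and 82.5% for PITX1. PITX1 was counted with 30 to 412 reads per biopsy and TBX5 with 39 to 164, so TBX5 had the fewest reads over all biopsies and PITX1 the fewest in a single biopsy.

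No member passed the test between injected and control sites. With pig in the model, edgeR's quasi-likelihood test called 0 of 8 members at a Benjamini-Hochberg adjusted p under 0.05, against 7 of 19862 genes tested (0.0352%), and at an unadjusted p under 0.05 it had 0 of 8 members, against 4.54% of genes. DESeq2 also called 0 of 8, against 0.31% of genes. The members' log2 fold changes of injected over control sites had a median of -0.053, where the median of all tested genes was -0.008. MEIS1, the HOX partner with the tightest levels, was at 20.7, 21.7, 22.1 and 21.8 CPM in injected and 19.4, 22.4, 17.3 and 25.8 CPM in control biopsies. All injected values lay within the range of the controls, and the log2 fold change was 0.02 ± 0.13 (SE, 95% confidence interval -0.26 to 0.31). MEIS2, the other HOX partner, was at 12.6, 8.31, 9.92 and 8.81 CPM in injected and 10.8, 11.5, 8.58 and 8.98 CPM in control biopsies, which also overlapped, and had 0.00056 ± 0.15 (-0.33 to 0.33). The remaining intervals included 0 as well. TBX3 had -0.03 ± 0.19 (-0.46 to 0.39) and EN1 -0.07 ± 0.17 (-0.44 to 0.30). EMX2 had -0.13 ± 0.18 (-0.53 to 0.27) and TBX18 -0.17 ± 0.22 (-0.67 to 0.33). The intervals were widest for the limb factors, with 0.11 ± 0.36 for PITX1 (-0.71 to 0.92) and -0.58 ± 0.33 for TBX5 (-1.31 to 0.14), and the interval of TBX5 reached down to 0.404 of its control level. The unnamed gene at TBX15 had 0.08 ± 0.15 (-0.25 to 0.41). The injected and control ranges overlapped for each of these 9 genes, where 1.15% of tested genes had every injected biopsy above every control and 0.916% every injected biopsy below.

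**Figure D1:**
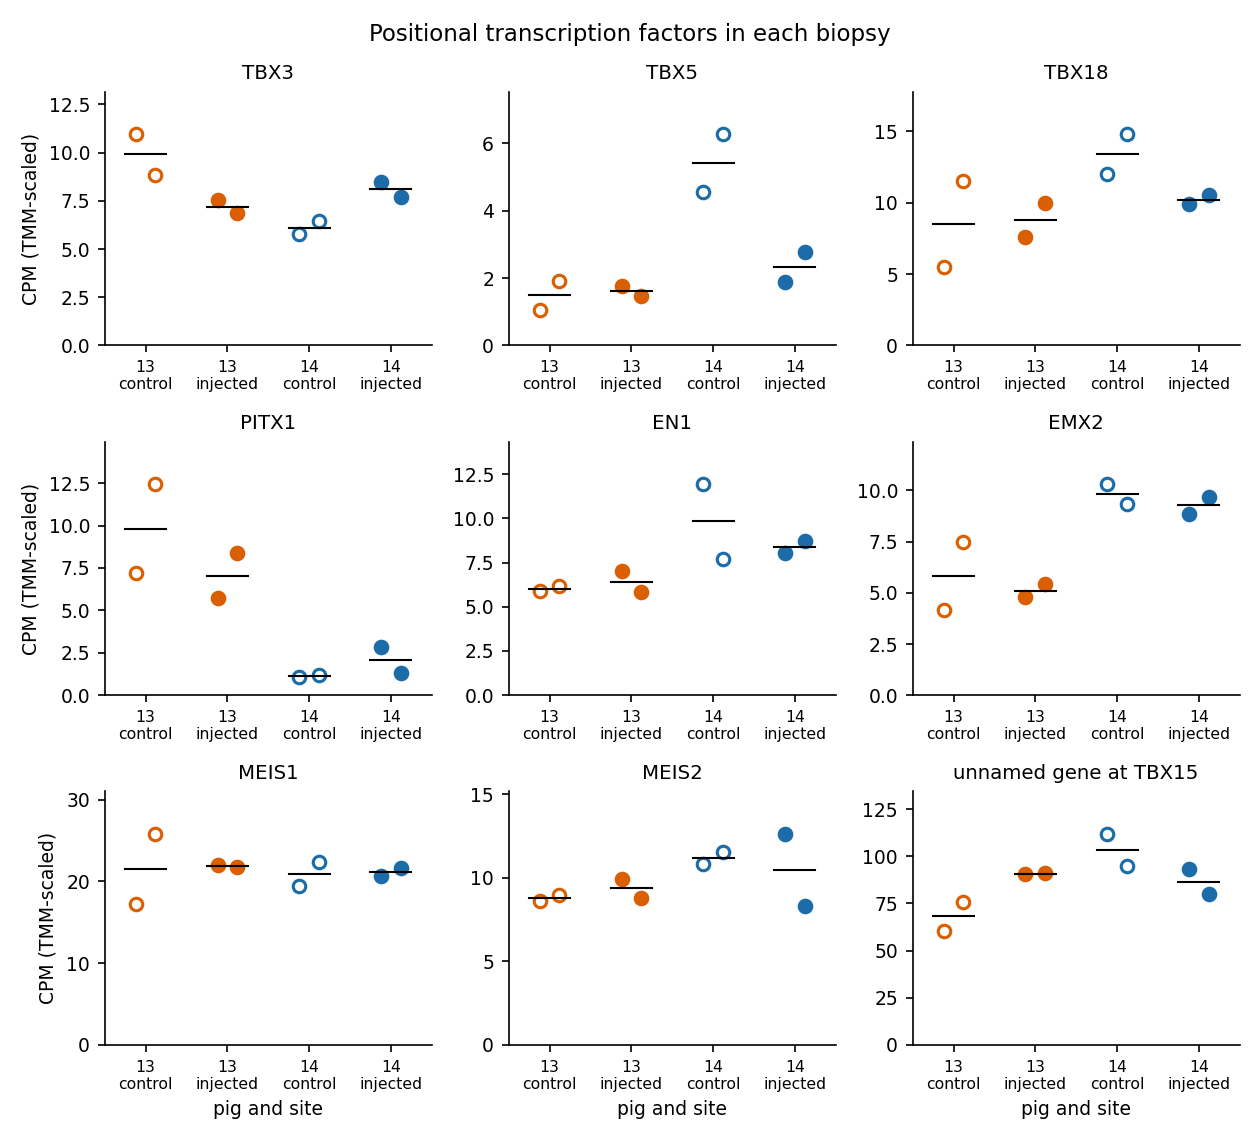
TMM-scaled CPM of the 8 members and of the unnamed gene at TBX15 in each biopsy, by pig (orange 13, blue 14) and site (open circles control, filled circles injected), with bars at the mean of 2 biopsies. MEIS1 lies between 17.3 and 25.8 CPM throughout, while PITX1 is at 5.75 CPM or more in every pig 13 biopsy and at 2.87 CPM or less in every pig 14 biopsy.

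Of the HOX genes in paralog groups 9 to 13 edgeR called 3 of 11 tested at the same sites, against 0.0352% of all genes. The median log2 fold change of the 11 was 0.29. Among the 8 not called by edgeR, HOXA11 had 2.55 ± 0.54 and HOXA13 1.78 ± 0.39. DESeq2 called both (adjusted p = 0.00024 and 0.028), while edgeR had adjusted p = 0.559 and 0.607. HOXD10 (-0.05), HOXD11 (-0.39) and HOXB9 (0.05), also not called, were lower. In paralog groups 1 to 8 edgeR called 0 of 20, with the smallest p for HOXA5 (0.87 ± 0.20, adjusted p = 0.689, and 0.0151 by DESeq2), HOXB7 (0.48 ± 0.16) and HOXA4 (0.50 ± 0.20). HOXA10 was at 0.0689 ± 0.0576 CPM in control and 5.49 ± 2.01 CPM in injected biopsies (SD, n = 4). It had a log2 fold change of 6.28 ± 0.39. HOXC10 had 3.61 ± 0.30 and HOXA9 2.85 ± 0.22 (adjusted p by edgeR at most 0.0014 for all 3). Each value lies above the upper bound of every member's interval, of which that of PITX1 was the highest at 0.92. HOXA10, HOXC10 and HOXA9 ranked 1, 3 and 2 by p of all tested genes here, so they are extremes of the same comparison and do not stand for the 11.

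Within single animals some members did separate the sites, but none in the same direction in both, a pattern that 3.11% (injected above) and 2.83% (injected below) of tested genes had. With 2 biopsies against 2, separation in 1 animal is common: injected sites were above the controls for 18.2% of tested genes in pig 13 and 20.5% in pig 14, and below them for 16.6% and 21%. TBX3 in pig 13 was at 8.86 and 10.95 CPM in controls (6b and 7b) and at 6.87 and 7.53 CPM in injected biopsies (12c and 12e). In pig 14 it was at 6.45 and 5.76 CPM in controls (6b and 7e) and at 7.72 and 8.48 CPM in injected biopsies (12c and 12d). Injected sites were thus below the controls in pig 13 and above them in pig 14, without overlap, a pattern of opposite separation that 7.47% of tested genes had. The log2 fold change was -0.46 ± 0.20 within pig 13 and 0.41 ± 0.20 within pig 14, and the interaction of pig and treatment was 0.87 ± 0.28 (edgeR unadjusted p = 0.0111, adjusted p = 0.499).

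The unnamed gene at TBX15 showed the mirror image. Its controls were at 76.0 and 60.3 CPM in pig 13 and its injected biopsies at 90.9 and 90.6 CPM, while in pig 14 controls were at 94.98 and 112 CPM and injected biopsies at 80.0 and 93.1 CPM. The interaction was -0.67 ± 0.21 (edgeR unadjusted p = 0.0097, adjusted p = 0.499). Markers of skin compartments moved with both genes. After each pig's mean was removed, the log2 level of TBX3 correlated across the 8 biopsies at r = 0.74 with the summed basal keratinocyte markers and at -0.75 with the summed fibroblast markers, and that of the unnamed gene at -0.71 and 0.71. Other marker lists moved with them at least as closely. For the unnamed gene r was 0.94 with melanocyte, 0.86 with adipocyte and 0.85 with sebaceous gland markers. For TBX3 it was -0.79 with dermal papilla, -0.77 with melanocyte and -0.76 with sebaceous gland markers. Most of the melanocyte sum was MITF, with 41.6 of 47.7 CPM at site 7b of pig 13. Of the 6 melanocyte genes 2 were at 0 in some biopsy. PMEL was highest at site 7b of pig 13, at 4.75 CPM, where the unnamed gene was lowest. The biopsies share 2 animals and their scaling, and the part of tissue makeup in the pattern was not tested. The basal keratinocyte sum was 12835 and 21320 CPM in controls and 15135 and 15715 CPM in injected biopsies of pig 13, and 7478 and 6800 CPM in controls and 13358 and 11608.5 CPM in injected biopsies of pig 14. The sum of 7 adipocyte markers was 603 and 589 CPM in controls and 2069 and 2247 CPM in injected biopsies of pig 13, and 1532 and 2976 CPM in controls and 674 and 2725 CPM in injected biopsies of pig 14, and the median interaction of its genes was -2.34, with 0 of 7 called by edgeR.

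TBX5 separated the sites in pig 14 alone. It was at 6.26 and 4.56 CPM in controls (6b and 7e) and at 2.76 and 1.87 CPM in injected biopsies (12c and 12d) of that pig. In pig 13 all 4 biopsies were low, with 1.90 and 1.07 CPM in controls and 1.46 and 1.77 CPM in injected biopsies. The log2 fold change was -1.22 ± 0.36 within pig 14 (edgeR adjusted p = 0.729) and 0.12 ± 0.37 within pig 13 (adjusted p = 0.981). The difference between the animals, -1.35 ± 0.51, was not called either (edgeR unadjusted p = 0.0255, adjusted p = 0.547). TBX18 was likewise lower at the injected sites of pig 14, with 10.52 and 9.89 CPM against 14.8 and 12.0 CPM, and overlapped in pig 13. PITX1 went the other way in pig 14, from 1.18 and 1.06 CPM in controls to 1.32 and 2.87 CPM in injected biopsies, with an interaction of 1.38 ± 0.58 (edgeR unadjusted p = 0.0394, adjusted p = 0.59). Of the 8 members 3 had an unadjusted interaction p under 0.05, against 8.22% of genes, and edgeR called 0 of 19862 genes for the interaction at the adjusted threshold. DESeq2 called 0.615% of genes and 0 of 8 members.

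Control sites numbered 7 and 6 were compared as a pair of uninjected positions, with 2 biopsies each. EdgeR called 0 of 8 members and 0 of 19862 genes at an adjusted p under 0.05, and 2 of 8 members against 4.68% of genes at an unadjusted p under 0.05. DESeq2 called 0 of 8 members and 0.0719% of genes. The 2 members were TBX18, with a log2 fold change of site 7 over site 6 of -0.64 ± 0.25, and MEIS1, with -0.39 ± 0.14 (edgeR adjusted p = 0.934 for both). TBX18 was at 11.5 CPM at site 6b and 5.52 CPM at site 7b of pig 13, and at 14.8 CPM at site 6b and 12.0 CPM at site 7e of pig 14. Site 7b of pig 13 is the biopsy with little collagen RNA, and without it the value of TBX18 was -0.25 and that of MEIS1 -0.26, each then resting on the site numbers of pig 14. The limb factors had wide errors here, with -0.59 ± 0.43 for TBX5 and -0.58 ± 0.49 for PITX1, and EMX2 (-0.34 ± 0.25), EN1 (0.30 ± 0.23) and TBX3 (0.11 ± 0.28) were nearer to 0.

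The calls among the members lay between the animals. EdgeR called 3 of 8 members (37.5%) for pig 14 over pig 13, against 10.7% of 19862 tested genes. Of the members 2 were higher in pig 14, against 6.39% of genes, and 1 lower, against 4.34%. DESeq2 called 4 of 8, against 15.8%, and edgeR had 4 of 8 at an unadjusted p under 0.05, against 26.7%. This compares 1 animal with 1 other. PITX1, the hindlimb factor, was higher in pig 13, and TBX5, the forelimb factor, and EMX2 were higher in pig 14.

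PITX1 in pig 13 was at 12.5 and 7.18 CPM in controls (6b and 7b) and at 8.36 and 5.75 CPM in injected biopsies (12c and 12e), from 175 to 412 reads. In pig 14 it was at 1.18 and 1.06 CPM in controls (6b and 7e) and at 1.32 and 2.87 CPM in injected biopsies (12c and 12d), from 30 to 83 reads. Every biopsy of pig 13 exceeded every biopsy of pig 14, as for 8.73% of tested genes. The means were 8.44 ± 2.88 and 1.61 ± 0.85 CPM (SD, n = 4 biopsies), and the log2 fold change of pig 14 over pig 13 was -2.40 ± 0.37 (edgeR adjusted p = 0.0051), a level 5.29-fold higher in pig 13. It stayed called without each biopsy in turn, with values from -2.85 to -2.12.

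TBX5 had a log2 fold change of 1.21 ± 0.33 (edgeR adjusted p = 0.0418), a level 2.31-fold higher in pig 14. Its ranges overlapped at their edges, from 1.07 to 1.90 CPM in pig 13 and from 1.87 to 6.26 CPM in pig 14. Of the 4 pig 14 biopsies 3 (6b, 7e and 12c) were above every pig 13 biopsy. The call ended without the pig 14 biopsies from sites 12c, 7e or 6b (edgeR adjusted p = 0.0686, 0.0963 and 0.108) and without the pig 13 biopsies from sites 12c, 7b or 6b (0.0777, 0.0738 and 0.0913). EMX2 had 0.81 ± 0.18 (edgeR adjusted p = 0.0199), a level 1.75-fold higher in pig 14. It was at 8.86, 9.67, 10.3 and 9.32 CPM in pig 14 and at 4.80, 5.41, 4.15 and 7.47 CPM in pig 13, without overlap, as for 9.87% of tested genes. Its call ended without the pig 14 biopsies from sites 12d or 7e (edgeR adjusted p = 0.0579 and 0.0669) and without the pig 13 biopsies from sites 12e or 12c (0.0697 and 0.0514).

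EN1 was at 7.71 and 11.9 CPM in controls (6b and 7e) and at 8.72 and 8.06 CPM in injected biopsies (12c and 12d) of pig 14. In pig 13 it was at 6.17 and 5.87 CPM in controls (6b and 7b) and at 5.81 and 7.00 CPM in injected biopsies (12c and 12e). EN1 was thus higher in every pig 14 biopsy, as were 9.87% of tested genes. Its log2 fold change of 0.55 ± 0.17 did not pass in edgeR (adjusted p = 0.0633) and passed in DESeq2 (adjusted p = 0.0286). The other 4 members were not called by either tool: TBX18 had 0.44 ± 0.22, MEIS2 0.25 ± 0.15, TBX3 -0.26 ± 0.19 and MEIS1 -0.05 ± 0.13 (95% confidence interval -0.33 to 0.24). The unnamed gene at TBX15 had 0.27 ± 0.15 (edgeR adjusted p = 0.284).

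**Figure D2:**
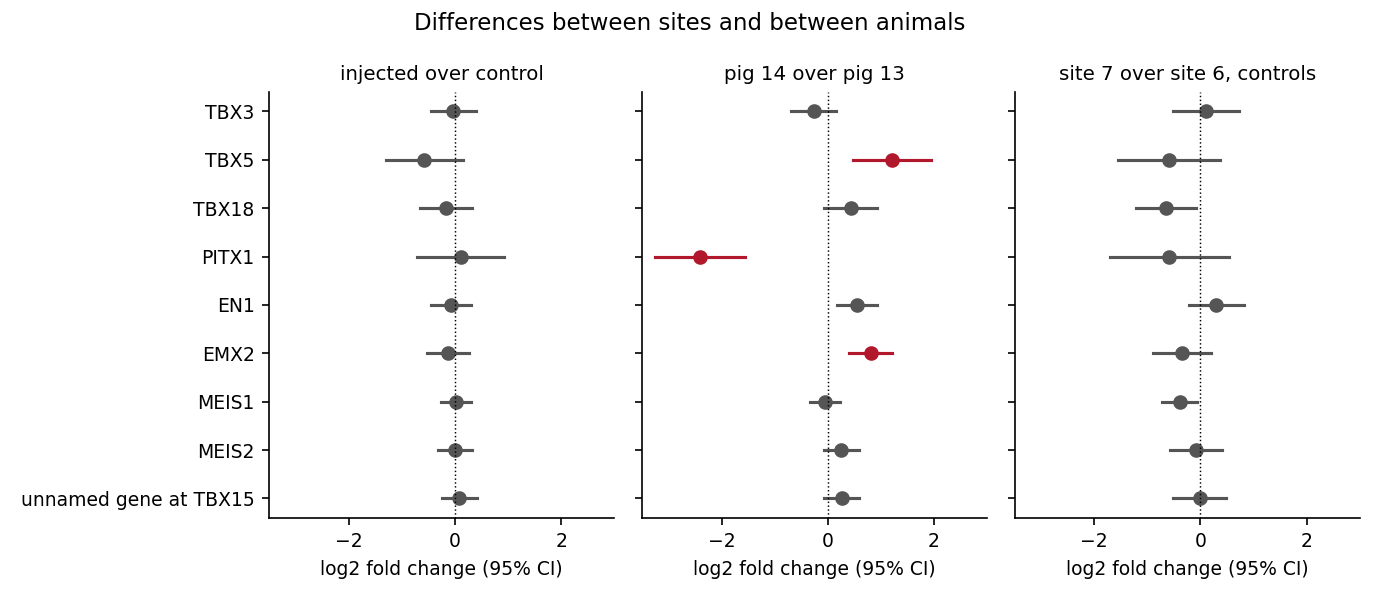
Log2 fold changes with 95% confidence intervals from edgeR for injected over control sites, pig 14 over pig 13 and site 7 over site 6 among controls; red marks an adjusted p under 0.05. Calls appear for TBX5, PITX1 and EMX2 in the comparison of the animals only.

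The ratio of PITX1 to TBX5 reads within a library does not depend on how libraries are scaled. It was 6.54 at site 6b, 6.74 at site 7b, 5.73 at site 12c and 3.24 at site 12e of pig 13. In pig 14 it was 0.189 at site 6b, 0.233 at site 7e, 0.48 at site 12c and 1.54 at site 12d. The animals did not overlap. Both genes were called between the animals in opposite directions, so a ratio that separates the animals adds no further evidence. In pig 14 both injected sites had a higher ratio than both controls while in pig 13 both had a lower one. Opposite separation of this kind, with 2 biopsies against 2, was seen for 7.47% of single tested genes, and no share was computed for pairs of genes. Sites 6b and 12c were sampled in both animals. The labels do not state that they lie at the same place in both animals. At 6b PITX1 was at 12.5 CPM in pig 13 and 1.18 CPM in pig 14, and TBX5 at 1.90 and 6.26 CPM. At 12c PITX1 was at 8.36 and 1.32 CPM, and TBX5 at 1.46 and 2.76 CPM.

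**Figure D3:**
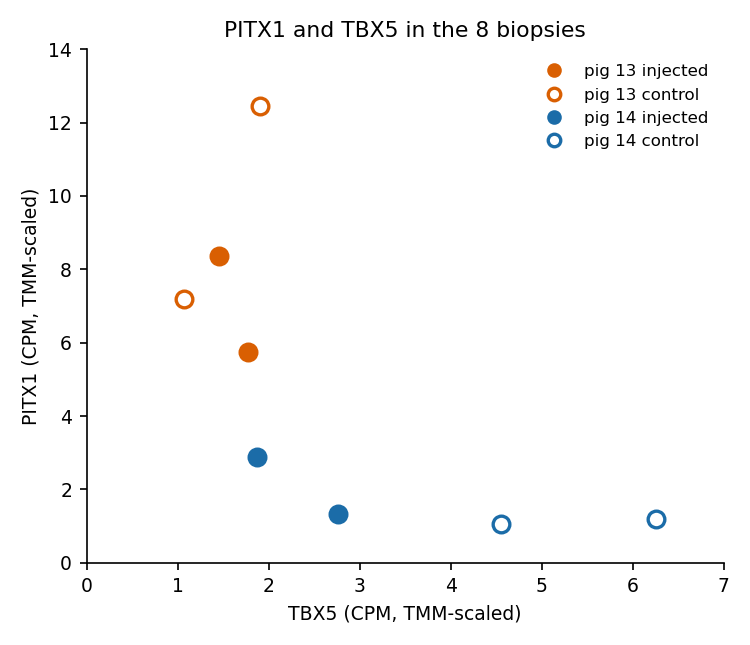
PITX1 against TBX5 in TMM-scaled CPM for the 8 biopsies, by pig (orange 13, blue 14) and site (open control, filled injected). Pig 13 lies at high PITX1 and low TBX5, and the 2 pig 14 controls lie at 4.56 and 6.26 CPM of TBX5 with PITX1 at 1.06 and 1.18 CPM.

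Tissue markers also differed between the animals. The summed fibroblast markers ran from 19277 to 109249 CPM in pig 13 and from 136661 to 192677 CPM in pig 14, without overlap. Of single tested genes 9.87% were higher in every pig 14 biopsy. Most of the sum came from the collagen genes. PDGFRA and DCN overlapped between the animals, while the other fibroblast markers did not. EdgeR called 1 of the 7 markers higher in pig 14, against 6.39% of genes, and their median log2 fold change was 1.12. Dermal papilla markers ran from 17.3 to 23.2 and from 27.2 to 32.1 CPM, and basal keratinocyte markers from 12835 to 21320 and from 6800 to 13358 CPM. Of 5 dermal papilla markers edgeR called 1 higher in pig 14, against 6.39% of genes. It called 1 of 6 basal keratinocyte markers lower, against 4.34%. The dermal papilla list had a median log2 fold change of only 0.03. Its sum differed mainly through CRABP1, at 5.14 to 8.23 CPM in pig 13 and 13.1 to 15.6 CPM in pig 14. No marker of these 3 lists was at 0 in any biopsy. The part of fibroblast or keratinocyte content in the differences of PITX1, TBX5 and EMX2 was not tested. Without the pig 13 control from site 7b the log2 fold changes were -2.45 for PITX1, 0.91 for TBX5 and 0.67 for EMX2.

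Other genes of body patterning, in 7 lists without HOX genes, were read beside the members. Of 103 symbols 101 had a gene and 74 were tested. Between injected and control sites edgeR called 0 of the 74, and DESeq2 called 1. The lists were 8 tested other T-box genes (median log2 fold change -0.02), 3 relatives of the homeobox members (0.32), 8 PBX and PREP cofactors (0.04), 17 limb and girdle factors (-0.01), 17 trunk and dermal mesenchyme factors (0.17), 14 head and face factors (0.04) and 7 caudal and axial regulators (0.12). In the trunk and dermal list ZIC1, a factor of dorsal trunk mesenchyme and neural tube, had 1.68 ± 0.53 and MEOX1, a somite factor, 0.55 ± 0.21 (edgeR adjusted p = 0.964 for both). Among limb factors HAND2, which sets the posterior limb border, had -1.35 ± 0.49 at a mean of 0.465 CPM, LMX1B, which marks the dorsal limb, had -0.38 ± 0.20, and LHX9, which acts in limb outgrowth, had 0.67 ± 0.44 at a mean of 0.414 CPM. The 8 cofactors of MEIS and HOX proteins ran from -0.19 ± 0.12 for PBX3 to 0.30 ± 0.13 for PKNOX2 (edgeR unadjusted p = 0.0474, adjusted p = 0.964), with 0.15 ± 0.12 for TGIF2. MEIS3, a relative of MEIS1 and MEIS2, had 0.32 ± 0.16, and OTX1 had -0.16 ± 0.28. In the other lists the genes with the smallest p were TBX21 (0.54 ± 0.32), TBX1 (-0.29 ± 0.24) and TBX2 (0.14 ± 0.18) among T-box genes, IRX3 (0.14 ± 0.10), BARX2 (0.16 ± 0.12) and DLX2 (0.37 ± 0.31) among head and face factors, and CYP26B1 (-0.38 ± 0.18), RARG (0.12 ± 0.10) and CDX1 (0.26 ± 0.26) among caudal and axial regulators.

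In the comparison of the animals edgeR called 10 of these 74 genes (13.5%), 6 higher and 4 lower in pig 14, against 10.7% of all tested genes. The limb and girdle list held 5 of them. OSR2 (1.01 ± 0.25), OSR1 (0.65 ± 0.15), LMX1A (1.21 ± 0.23) and LMX1B (0.76 ± 0.20) were higher in pig 14 and DLX5 (-0.79 ± 0.22) was lower. TWIST2, a dermal fibroblast factor, was higher with 0.85 ± 0.17, and IRX4 (-1.07 ± 0.28), LHX6 (-0.58 ± 0.16) and the retinoic acid receptor RARG (-0.53 ± 0.10) were lower. The remaining call was TBX21, a T-box factor of T and NK cells rather than of position. TBX21 was at 0.356 ± 0.153 CPM in pig 13 and 2.06 ± 0.56 CPM in pig 14 (SD, n = 4 biopsies). Of 5 leukocyte markers edgeR called 2 higher in pig 14, against 6.39% of genes, with log2 fold changes from -0.11 to 1.88. The summed leukocyte markers overlapped, at 60.3 to 108 CPM in pig 13 and 96.1 to 150 CPM in pig 14. TBX4, the hindlimb relative of TBX5 and a target of PITX1, was chosen after its values were seen. Between the animals TBX4 did not follow PITX1, with 1.07 to 2.21 CPM in pig 13 and 1.90 to 3.25 CPM in pig 14. It was not called (0.66 ± 0.29, edgeR adjusted p = 0.185). Within pig 13 TBX4 was higher at sites 6b and 12c than at 7b and 12e, as was PITX1. That split was read from the values, follows neither treatment nor site number, and no share of gene pairs was computed for it. Within pig 14 TBX4 was lowest at site 12d, where PITX1 was highest. Of the 31 tested HOX genes edgeR called HOXB2 and HOXC9 higher in pig 14.

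**Figure D4:**
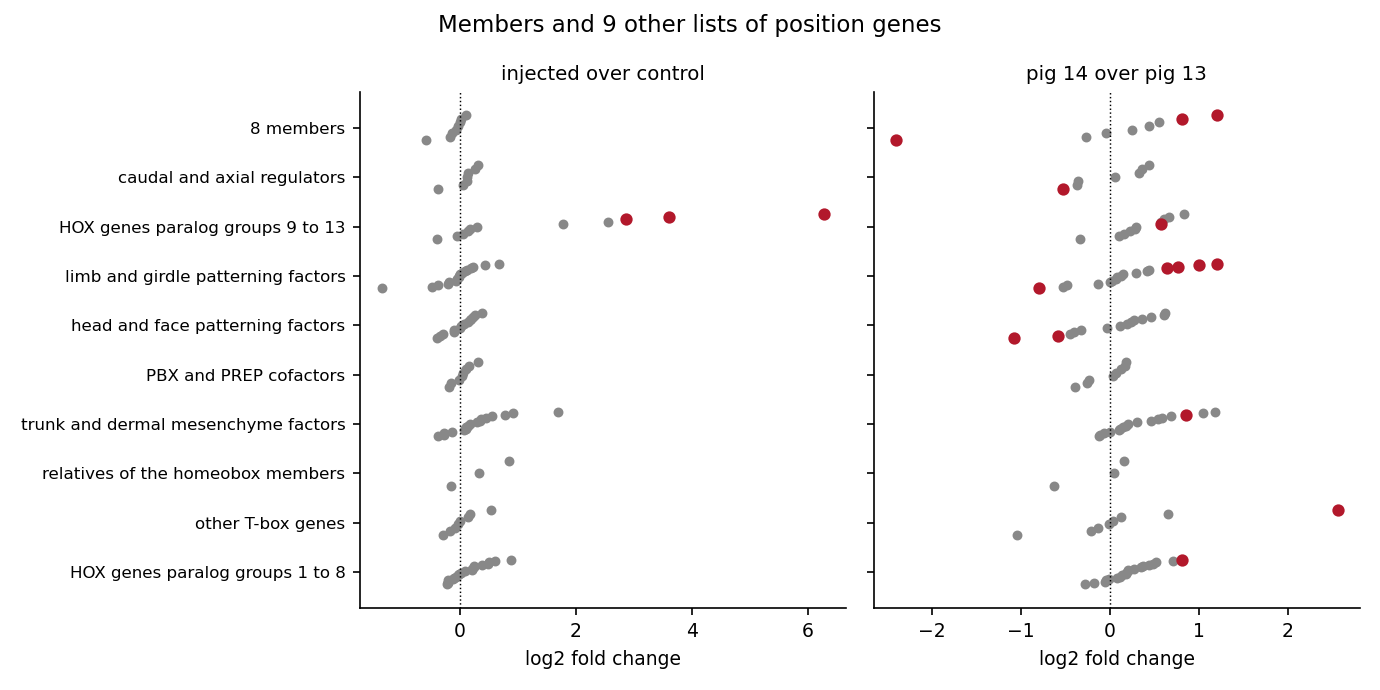
Log2 fold changes of the 8 members and of 9 other lists of position genes for injected over control sites (left) and pig 14 over pig 13 (right); each point is a gene and red marks an edgeR adjusted p under 0.05. The 3 calls on the left are HOX genes, and PITX1 at -2.40 is the lowest point on the right.

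Members were also compared with each other and with all genes, as a description over 8 biopsies that share 2 animals and their scaling. Over the raw log2 levels, which hold the difference between the animals, PITX1 had r = -0.81 with TBX5, -0.85 with EN1 and -0.75 with EMX2, and TBX5 had 0.78 with EMX2. Once each pig's mean was removed, the values were -0.49, -0.45, 0.40 and 0.39. TBX18 then had 0.82 with MEIS1, 0.80 with EMX2 and 0.69 with TBX5, and TBX3 had -0.89 with the unnamed gene at TBX15. Among the genes with a symbol and a mean of at least 1 CPM, those most like TBX18 after removal of pig means were ZNF606 (r = 0.997), LMO7 (0.98) and IRX5 (0.98). Those most like EMX2 were DLX1 (0.98), SLC30A1 (0.97) and LMTK3 (0.96), and those most like MEIS1 were DTX3 (0.99), PPFIA4 (0.99) and ADAM33 (0.98). For TBX5 they were SPTY2D1 (0.98), FER (0.97) and ERBB4 (0.97), and for PITX1 RETREG3 (0.96), LDB2 (0.95) and MST1 (0.95). TBX3 was nearest to PISD (0.98), ITGB5 (0.97) and CA2 (0.97). EN1 was nearest to LMOD1 (0.95), CDKN2AIPNL (0.93) and EME1 (0.92), MEIS2 to ZNF521 (0.97), C1orf53 (0.96) and SPIC (0.96), and the unnamed gene at TBX15 to PPP1R1A (0.99), ITIH5 (0.99) and SMKR1 (0.99). Each is the highest of 13587 genes compared over only 8 biopsies.

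Genes within 100 kb of the members were read for signs of shared levels at a locus. EMX2 had the most neighbours that were expressed enough to test, 3 long noncoding RNA genes. The nearest, ENSSSCG00000048917 (chromosome 14, 127630461 to 127649840), lies on the opposite strand, 848 nt from EMX2. It was at 4.09 ± 1.10 CPM in pig 13 and 5.90 ± 1.22 CPM in pig 14 (SD, n = 4 biopsies), with a log2 fold change of 0.51 ± 0.22 (edgeR adjusted p = 0.162), and ENSSSCG00000048494 had 0.62 ± 0.26 (0.151) and ENSSSCG00000049475 0.12 ± 0.32 (0.856). None of the 3 was called, where EMX2 had 0.81. Between TBX3 and TBX5 lies the unnamed protein-coding gene ENSSSCG00000009866 (chromosome 14, 37653509 to 37655111), with 2 to 41 reads per biopsy. It was at 0.795 ± 0.256 CPM in pig 13 and 0.232 ± 0.118 CPM in pig 14. EdgeR called it lower in pig 14 (-1.80 ± 0.45, adjusted p = 0.029), against 4.34% of all tested genes. TBX5 was higher in pig 14 and TBX3 was not called. No other tested neighbour of these genes was called between the animals, and this gene was named after its values were seen. The long noncoding RNA gene that lies 684 nt from TBX3 on the opposite strand had at most 4 reads in any biopsy. The neighbours of PITX1 were PCBD2, with a log2 fold change of -0.32 ± 0.21 between the animals, and CATSPER3, with at most 8 reads. The labels do not say whether strand entered the counting. Reads of opposite-strand genes may then be shared where they overlap, as a pseudogene with at most 4 reads does with TBX18.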

How the data were processed

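Read counts for each Ensembl gene were deposited as whole numbers, with CPM and RPKM columns beside them, per the file headers. The deposited CPM and RPKM followed from the counts and gene lengths and entered no test. The single file of the pig 13 control from site 7b held 607 complete genes, so counts came from the series table. The submitters' processing notes name STAR 2.5.1a, featureCounts 1.4.6-p5 and Sscrofa11.1. The series table had 32388 rows for 31907 genes, and the 425 genes on several rows were kept once.

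FilterByExpr of edgeR 4.0.16 (R 4.3.3, minimum count 10) kept 19862 genes. EdgeR's quasi-likelihood test with TMM scaling, robust estimation and pig as a block was fitted over all of them, with DESeq2 1.42.0 beside it. Pig is in the labels. Deviations from the group mean correlated between injected and control biopsies at 0.20 to 0.58 where the pig was the same and at -0.53 to -0.25 where it was not. Because each group mean was removed, positive values within a pig force negative ones across pigs, so the negative values add no evidence. No pair of biopsies of a group agreed within sampling noise (chi-square per degree of freedom at least 30.01). Correlations used log2(CPM + 0.5). The fit was tested on simulated data, in which biopsies were drawn as independent. That test therefore does not cover the sharing of animals among these biopsies.

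Named were all members, up to 3 genes per list with the smallest p for injected sites, and the 3 genes most like each member. Genes called between the animals, neighbours and TBX4 were named after their values were seen. Members and lists were chosen with earlier results of these data known. No sequences were used here. Results of 2 listed genes are not reported here.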

Additional observations from a re-analysis of the deposited data

How the results depend on the processing

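The count of members called between injected and control sites was 0 in all 13 alternatives. Without the replicate block for pig, 6 genes and 0 members were called, and the log2 fold changes of PITX1 and MEIS2 turned to -0.26 and -0.0072. DESeq2 called 58 genes for injected sites, 89 for the interaction and 14 for site 7 over site 6, in place of 7, 0 and 0. Without a filter on low counts 8 genes were called for the interaction. Scaling by library totals moved the median of all genes to -0.21 for pig 14 over pig 13 and called 4857 genes in place of 2133, 19% of them higher in place of 59.5%. PITX1, TBX5 and EMX2 stayed called there, with -2.60, 0.997 and 0.60. The interaction of MEIS1 turned to 0.012 with DESeq2 and with its size factors, and to 0.092 with library totals.

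Leaving out each biopsy in turn gave 3 to 19 genes called for injected sites, the 19 without the pig 13 control from site 7b. For the animals it gave 1142 to 2240 genes and 1 to 2 members, below the 3 of all biopsies. It gave 0 to 313 genes for the interaction, the 313 without the pig 13 control from site 6b, and, in an alternative added after seeing the data, 0 to 122 for site 7 over site 6, the 122 without the pig 14 control from site 7e. A lone biopsy left in a group is assumed to vary like the others. For injected sites the sign turned in TBX3 (-0.15 to 0.11), TBX18 (-0.39 to 0.0093), PITX1 (-0.24 to 0.45), EN1 (-0.16 to 0.11), EMX2 (-0.27 to 0.061), MEIS1 (-0.085 to 0.15), MEIS2 (-0.10 to 0.13) and the unnamed gene at TBX15 (-0.057 to 0.20). TBX5 kept its sign there. It turned for the animals in MEIS1 (-0.16 to 0.075). For the interaction it turned in EN1 (-0.58 to 0.061), EMX2 (-0.38 to 0.46), MEIS1 (-0.32 to 0.26) and MEIS2 (-0.50 to 0.11). For site 7 over site 6 it turned in TBX3 (-0.39 to 0.50), PITX1 (-1.06 to 0.29), EN1 (-0.045 to 0.61), EMX2 (-0.69 to 0.0086) and the unnamed gene at TBX15 (-0.46 to 0.36). The cause was not tested. Depth limits TBX5, with 39 to 164 reads, and PITX1 in pig 14, with 30 to 83.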
